A study of Mus musculus with 9 samples.

Results

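The unfolded protein response (UPR) genes described here are *Xbp1*, *Ern1*, *Atf6*, *Ddit3*, *Hspa5*, *Hsp90b1*, *Dnajb9*, *Herpud1*, *Sdf2l1* and *Pdia4*. They were taken from the table by gene name and make up 10 of the 55471 genes counted. All 10 passed the filter on low counts, as did 16260 genes in all. The name *Ddit3* has 2 identifiers in the table, and the second one, whose exons lie wholly inside those of the first, had 0 counts in all 9 libraries.

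RNA was sequenced from bone marrow-derived dendritic cells (DCs) of wild-type (WT) female C57BL/6 mice aged 8 to 20 weeks, grown with GM-CSF, a cytokine that drives myeloid differentiation. The cells were left unstimulated, were given LPS, a bacterial cell wall component that activates Toll-like receptor 4, or were given IFN-β, a type I interferon. Stimulation lasted 6 h, and each of the 3 conditions has 3 libraries, lettered A, B and C. The labels do not say whether the libraries of a condition came from separate mice or cultures, so the p-values measure the spread between these libraries, which may be technical. These are bulk cultures, in which fewer cells of a type and less RNA per cell cannot be told apart.

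The UPR is the set of pathways by which a cell adjusts the folding capacity of its endoplasmic reticulum (ER). It has 3 membrane sensors. IRE1α, encoded by *Ern1*, splices the *Xbp1* mRNA so that it encodes an active transcription factor. ATF6 is cut in the Golgi to release another transcription factor, and PERK phosphorylates eIF2α, which slows translation while favouring that of ATF4. The transcription factor CHOP, encoded by *Ddit3*, lies downstream of ATF4. The classical targets are ER chaperones and genes for the disposal of misfolded proteins by ER-associated degradation (ERAD). DCs are known to keep the IRE1α-XBP1 branch active without deliberate ER stress. The counts are totals per gene, so spliced and unspliced *Xbp1* mRNA, cleavage of ATF6 and phosphorylation of PERK were not measured.

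The promoters of these genes are shown first because the UPR acts largely through short DNA elements. RefSeq promoter windows of GRCm38.p6, running from 250 bases before to 50 bases after the transcription start, were found for 9 of the 10 genes, all but *Atf6*. Both strands were searched for the ER stress response element (ERSE, CCAAT and CCACG with 9 bases between them), for ERSE-II (ATTGG and CCACG with 1 base between them), for the core of the UPR element (TGACGTGG) and for the C/EBP-ATF response element (CARE, TGATGNAA) that ATF4 is known to bind. ERSE was found in the windows of *Hspa5* and *Hsp90b1*, ERSE-II and CARE in that of *Herpud1*, and the UPR element core in 0 of the 9 windows. Over all 32851 windows of the table, ERSE was present in 0.119%, ERSE-II in 0.0365%, the UPR element core in 0.676% and CARE in 3.97%. CCAAT alone, the first part of ERSE, was found in 37.4% of all windows and CCACG alone in 32.8%. A match is a description of letters and not of binding. Only these exact letters inside the windows were searched, so elements further away or with other letters were not looked for. The 250 bases before the start are printed for the 3 genes with a match and for *Ddit3*, with the matched letters in capitals, 5′ to 3′ on the strand of the gene. *Ddit3* had the widest response to IFN-β of the 10 genes and no exact match to the 4 elements in its window. The stretches are chr2:34771840-34772089 on the plus strand for *Hspa5*, chr10:86705445-86705694 on the minus strand for *Hsp90b1*, chr8:94386179-94386428 on the plus strand for *Herpud1* and chr10:127290543-127290792 on the plus strand for *Ddit3*.
Hspa5: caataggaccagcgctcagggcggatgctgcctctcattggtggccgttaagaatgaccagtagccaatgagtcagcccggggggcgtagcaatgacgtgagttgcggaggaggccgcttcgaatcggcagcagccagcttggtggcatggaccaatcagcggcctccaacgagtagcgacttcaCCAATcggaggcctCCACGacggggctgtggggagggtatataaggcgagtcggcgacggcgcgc
Hsp90b1: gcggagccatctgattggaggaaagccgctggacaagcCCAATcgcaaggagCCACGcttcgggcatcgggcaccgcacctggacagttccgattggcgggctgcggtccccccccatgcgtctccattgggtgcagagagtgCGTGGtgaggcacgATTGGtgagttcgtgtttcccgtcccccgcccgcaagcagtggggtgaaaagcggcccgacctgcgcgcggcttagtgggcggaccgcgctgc
Herpud1: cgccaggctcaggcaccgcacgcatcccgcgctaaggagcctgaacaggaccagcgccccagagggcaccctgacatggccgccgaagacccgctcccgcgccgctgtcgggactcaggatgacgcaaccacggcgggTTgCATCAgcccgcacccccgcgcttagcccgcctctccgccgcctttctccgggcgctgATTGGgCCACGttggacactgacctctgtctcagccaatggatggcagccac
Ddit3: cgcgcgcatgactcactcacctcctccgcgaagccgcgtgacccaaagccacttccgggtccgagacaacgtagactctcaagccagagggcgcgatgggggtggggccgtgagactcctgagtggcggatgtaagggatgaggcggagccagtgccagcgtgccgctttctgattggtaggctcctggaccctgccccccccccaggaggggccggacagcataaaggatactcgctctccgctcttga
The ERSE of *Hspa5* lay at -65 to -47 relative to the start. *Hsp90b1* had an ERSE at -212 to -194 and another, on the opposite strand, at -107 to -89. In *Herpud1* the ERSE-II lay at -52 to -42 and the CARE, on the opposite strand, at -112 to -105.

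The libraries held 33425803 to 43735199 counts assigned to genes. The factors by which the trimmed mean of M-values (TMM) method rescales library sizes moved with condition, at 1.18 to 1.26 in unstimulated, 0.783 to 0.841 in LPS and 0.977 to 1.02 in IFN-β libraries. Under scaling by library size alone the centre of the distribution of log2 fold changes shifted by -0.58 for LPS and -0.31 for IFN-β. Changes below are relative to the TMM scale, and among those refitted singly the ones whose direction depends on it are named. Of the DC markers *Itgax*, *H2-Ab1* and *Cd74* were abundant in all 9 libraries, while *Flt3* was at most 4.99 CPM (counts-per-million, on TMM-scaled library sizes) and *Cd209a* at most 0.361 CPM. Macrophage and monocyte markers were also present: the 5 summed to 1434 to 1746 CPM in unstimulated, 2159 to 2554 in LPS and 1641 to 1823 in IFN-β libraries. The 5 did not move together, since *Csf1r* went from 1026 to 1198 CPM unstimulated to 546.5 to 589 with LPS, and *Cd14* from 71.6 to 79.0 to 662 to 733. The 8 DC markers summed to 4632 to 5488, 6421 to 7096 and 5209 to 5482 CPM. The part of these shifts in the results below was not tested. Plasma cells, which are rich in UPR transcripts, had *Mzb1* at 0 counts in all 9 libraries, a gene that shares 695 of its 1215 exon bases with another on its strand, *Tnfrsf17* at no more than 1 count and *Jchain* at no more than 7. The fourth plasma cell marker, *Sdc1*, which other cells also express, carried the sum of that list at 114 to 141, 68.6 to 79.4 and 155 to 179 CPM. The lists for neutrophils, mast cells, T cells, B cells, erythroid cells and fibroblasts summed to at most 3.57 CPM in any library. The 6 stimulation genes *Il12b*, *Il6*, *Tnf*, *Isg15*, *Ifit1* and *Mx1* summed to 240.5 to 289 CPM in unstimulated, 12270 to 13110 in LPS and 2589 to 2879 in IFN-β libraries, in the order of the labels.

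Levels of different genes were compared as RPKM, that is, CPM per kilobase of exon. In unstimulated DCs the highest levels were those of *Hspa5* at 190 ± 11.8 RPKM (SD, n = 3), *Hsp90b1* at 177 ± 7.91, *Pdia4* at 146 ± 8.10 and *Sdf2l1* at 95.3 ± 5.92. *Xbp1* followed at 51.9 ± 1.81 and *Herpud1* at 26.0 ± 3.39. *Dnajb9* (9.95 ± 0.506), *Atf6* (7.02 ± 0.729), *Ern1* (6.59 ± 0.358) and *Ddit3* (5.48 ± 1.5) were lowest. Among neighbours in this order, *Hspa5* and *Hsp90b1*, *Atf6* and *Ern1*, and *Ern1* and *Ddit3* lay within their SDs of each other. The *Xbp1* mRNA stood at a higher level per length than the mRNA of its splicing enzyme, *Ern1*, in each condition.

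The first 5 genes kept their order under both stimuli. With LPS, *Hspa5* reached 369 ± 38.8 RPKM and drew away from *Hsp90b1* at 200 ± 24.4. *Herpud1* fell to 10.5 ± 2.43 RPKM with LPS, level with *Dnajb9* at 10.7 ± 1.54. With IFN-β, *Ddit3* moved from the lowest place to 12.1 ± 0.844 RPKM, within the SDs of both *Herpud1* (14.9 ± 2.21) and *Dnajb9* (11.2 ± 0.584).

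**Figure D1:**
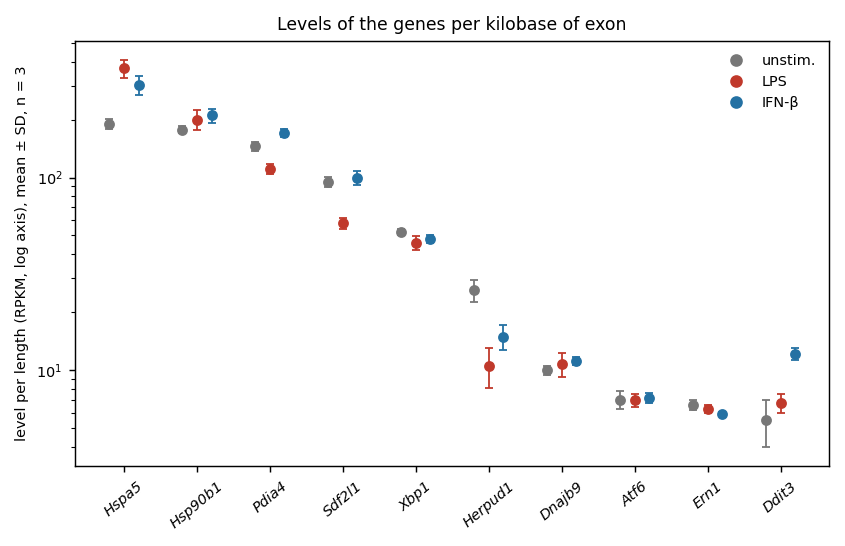
Mean level of the 10 UPR genes in RPKM on a log axis, with the SD over 3 libraries as bars, in unstimulated (grey), LPS (red) and IFN-β (blue) DCs, ordered by the unstimulated level. *Hspa5* and *Hsp90b1* lead in each condition, the 5 highest genes keep their order, and the order of the other 5 changes.

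With LPS, 1 of the 10 genes was higher (*Hspa5*) and 4 were lower (*Xbp1*, *Herpud1*, *Sdf2l1* and *Pdia4*) at an adjusted p under 0.05 in edgeR's quasi-likelihood test, where 32.8% of all tested genes were higher and 35.4% lower. With IFN-β, 3 were higher (*Ddit3*, *Hspa5* and *Pdia4*) and 1 was lower (*Herpud1*), against 23.6% and 23.3% of all genes. The 4 genes that differed between the responses, *Ddit3*, *Herpud1*, *Sdf2l1* and *Pdia4*, were all higher with IFN-β than with LPS, against 25.8% of all genes higher and 23.3% lower. With only 10 genes these counts are descriptions, and they do not set the genes apart from the rest of the table. The median log2 fold change of the 10 genes was -0.04 with LPS and 0.12 with IFN-β, against -0.04 and -0.02 over all tested genes. The 3 libraries of each group did not overlap for 4 genes in the LPS comparison, 7 in the IFN-β comparison and 4 between the stimuli, where 72.4%, 58.1% and 56.8% of all tested genes did not overlap. With the library letter as a block, a fit that the pairing of letters across conditions allows, 3 genes were higher and 4 lower with LPS, 4 higher and 2 lower with IFN-β, and 4 higher and 1 lower between the stimuli. Over all tested genes that fit called 35.4% higher and 38.1% lower with LPS, 27.9% and 28.4% with IFN-β, and 30.3% and 27.6% between the stimuli, so its calls rose in number across the table too.

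**Figure D2:**
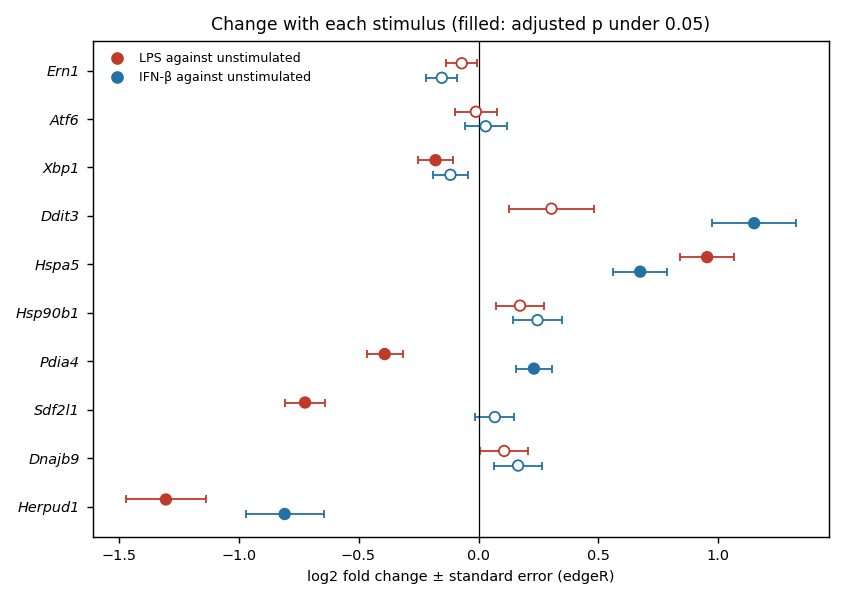
Log2 fold change of each UPR gene against unstimulated DCs, with its standard error, for LPS (red) and IFN-β (blue); filled points have an adjusted p under 0.05 in edgeR. *Hspa5* lies to the right and *Herpud1* to the left of 0 for both stimuli, while *Sdf2l1* and *Pdia4* lie to the left for LPS and to the right for IFN-β.

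*Hspa5* (ENSMUSG00000026864, GRCm38 chr2:34771970-34777547, plus strand) encodes BiP, the ER Hsp70 chaperone that also binds the UPR sensors at rest. It stood at 857, 758 and 801 CPM in unstimulated libraries A, B and C, at 1571, 1389 and 1716 with LPS and at 1327, 1120 and 1407 with IFN-β. Every stimulated library lay above every unstimulated one, while the LPS and IFN-β ranges overlapped. The gene was 1.94-fold higher with LPS (log2 fold change 0.95 ± 0.11 SE, edgeR adjusted p = 2.13e-05) and 1.60-fold higher with IFN-β (0.67 ± 0.11, adjusted p = 0.000651). Both calls held when any 1 of the 9 libraries was left out, and under scaling by library size alone, at 0.37 for both. The IFN-β response was smaller than the LPS response by a difference that missed the threshold (-0.28 ± 0.11, edgeR adjusted p = 0.0589). With the letter block this difference was -0.28 with an edgeR adjusted p of 0.00364, and the gene was lower with IFN-β in 3 of 3 letters. It was also called with DESeq2 (-0.31, adjusted p = 0.0174), without the filter on low counts (-0.26, edgeR adjusted p = 0.0459), without LPS B (-0.36, 0.0323) and without IFN-β C (-0.35, 0.0419), while scaled by library size alone it was -0.006 (edgeR adjusted p = 0.966).

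*Hsp90b1* (ENSMUSG00000020048, chr10:86690209-86705509, minus strand) encodes GRP94, the ER Hsp90 chaperone, which folds Toll-like receptors and integrins. It stood at 727, 679 and 739 CPM unstimulated, at 790, 717 and 912 with LPS and at 852, 774 and 918 with IFN-β. The LPS libraries overlapped the unstimulated ones, and the IFN-β libraries lay above them. Neither difference passed the test, at 0.17 ± 0.10 for LPS (edgeR adjusted p = 0.156, 95% interval -0.05 to 0.40) and 0.25 ± 0.10 for IFN-β (adjusted p = 0.072, 0.02 to 0.47). With the letter block both did, at 0.17 (edgeR adjusted p = 0.033) and 0.24 (adjusted p = 0.00595), and scaled by library size alone both changed sign, to -0.41 and -0.06. The LPS value was 0.08 without LPS C, and the IFN-β difference was called with DESeq2 (0.25, adjusted p = 0.0431) and without LPS C (0.24, edgeR adjusted p = 0.0491). Its exons share 415 bases with *1810014B01Rik* on the other strand and 84 and 133 bases with 2 small genes on its own, and the strand setting of the counting is not stated, so reads in those bases are uncertain.

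*Pdia4* (ENSMUSG00000025823, chr6:47796141-47813430, minus strand) encodes ERp72, a protein disulfide isomerase of the ER. Its level was 371, 333 and 344 CPM unstimulated, 275, 249 and 275 with LPS and 419, 386 and 425 with IFN-β. The 3 groups did not overlap, with LPS lowest and IFN-β highest. The gene fell 1.31-fold with LPS (-0.39 ± 0.08, edgeR adjusted p = 0.000799), a call that held without any 1 library. With IFN-β it was 1.17-fold higher (0.23 ± 0.08, edgeR adjusted p = 0.0269). That smaller rise was no longer called without unstimulated B (0.19, edgeR adjusted p = 0.114), unstimulated C (0.22, 0.0689), IFN-β A (0.21, 0.0864) or IFN-β C (0.21, 0.0837), nor with upper-quartile factors (0.15, 0.0897) or without the filter on low counts (0.23, 0.051), and its sign turned to -0.08 under scaling by library size alone. IFN-β and LPS differed by 0.62 ± 0.08 (edgeR adjusted p = 5.97e-05).

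*Sdf2l1* (ENSMUSG00000022769, chr16:17130138-17132383, minus strand) encodes a small ER protein that works with the J-protein ERdj3 and BiP. It was at 111, 98.3 and 107 CPM unstimulated, at 65.6, 59.1 and 67.3 with LPS and at 111, 101 and 120 with IFN-β. All 3 LPS libraries lay below the other 6, and the IFN-β and unstimulated libraries overlapped. The LPS change was a 1.65-fold fall (-0.72 ± 0.08, edgeR adjusted p = 1.62e-05), and IFN-β and LPS differed by 0.79 ± 0.08 (adjusted p = 2.03e-05). Against unstimulated DCs the IFN-β difference was 0.07 ± 0.08 (edgeR adjusted p = 0.523, 95% interval -0.11 to 0.25), and its sign turned under scaling by library size alone (-0.24) and with upper-quartile factors (-0.01).

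**Figure D3:**
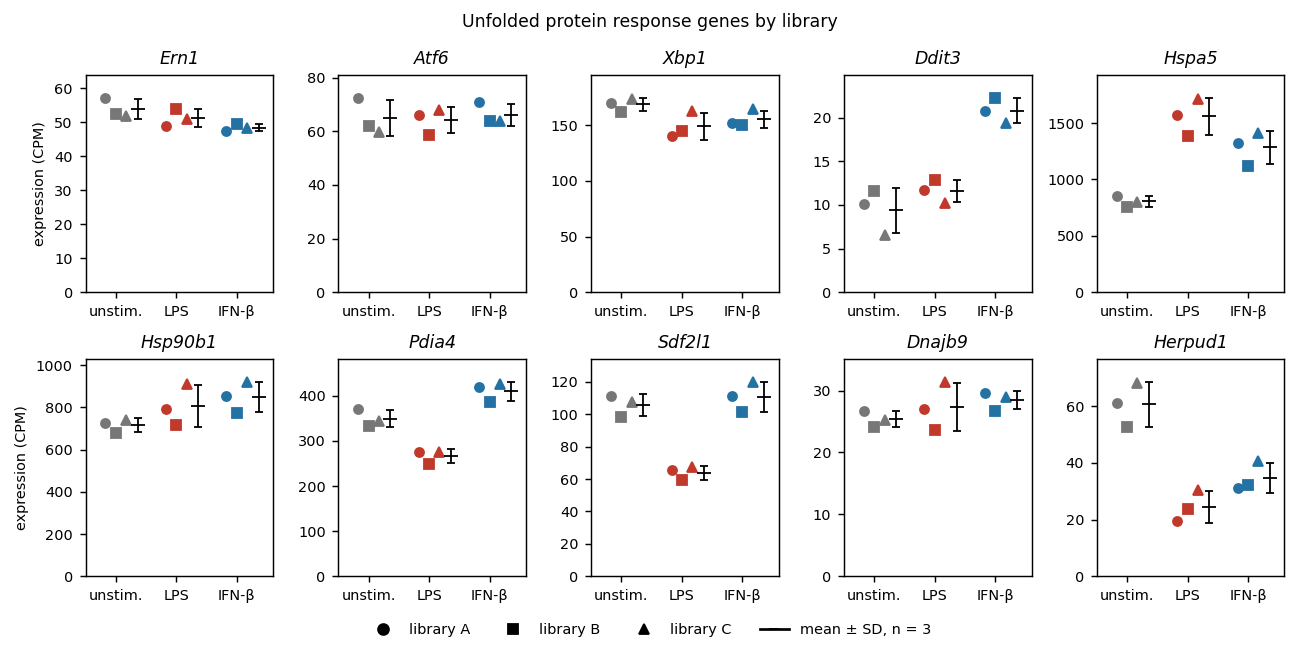
CPM of each UPR gene in the 9 libraries (circle A, square B, triangle C; grey unstimulated, red LPS, blue IFN-β) with the mean and SD of each group of 3, on axes that start at 0. The 3 LPS points of *Sdf2l1*, at 59.1 to 67.3 CPM, lie below all others of that gene, and the 3 IFN-β points of *Ddit3*, at 19.4 to 22.3 CPM, lie above all others.

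*Dnajb9* (ENSMUSG00000014905, chr12:44205559-44210326, minus strand) encodes ERdj4, a J-protein cochaperone of BiP and a known target of spliced XBP1. It stood at 26.7, 24.2 and 25.2 CPM unstimulated, at 27.0, 23.6 and 31.4 with LPS and at 29.6, 26.8 and 28.9 with IFN-β. The LPS libraries spanned the unstimulated ones, while the IFN-β libraries lay just above them. Neither difference passed the test, at 0.11 ± 0.10 for LPS (edgeR adjusted p = 0.363, 95% interval -0.12 to 0.33) and 0.17 ± 0.10 for IFN-β (adjusted p = 0.201, -0.06 to 0.39), and both signs turned under scaling by library size alone (-0.47 and -0.14). The LPS value rested on library C, without which it was -0.01.

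*Herpud1* (ENSMUSG00000031770, chr8:94386438-94395377, plus strand) encodes HERP, an ER membrane protein of the ERAD machinery. It was at 61.2, 52.5 and 68.3 CPM unstimulated, at 19.4, 23.7 and 30.6 with LPS and at 31.1, 32.3 and 40.6 with IFN-β. The groups did not overlap, with unstimulated DCs highest and LPS lowest. *Herpud1* fell 2.47-fold with LPS (-1.30 ± 0.17, edgeR adjusted p = 3.89e-05) and 1.75-fold with IFN-β (-0.81 ± 0.16, adjusted p = 0.00215), and both calls held without any 1 library. The difference between the stimuli, 0.49 ± 0.17 (edgeR adjusted p = 0.0289), was lost without LPS A (0.34, adjusted p = 0.103), LPS B (0.46, 0.0891) or IFN-β C (0.37, 0.112). Of the 10 genes it was the one that moved most with LPS, and its direction was opposite to that of *Hspa5* under both stimuli.

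Since both genes were counted in the same library, the ratio of their counts does not depend on any scaling between libraries. *Hspa5* had 11.7 to 14.4 counts per *Herpud1* count in unstimulated libraries, 56.1 to 81.2 with LPS and 34.7 to 42.7 with IFN-β. The ratio to *Sdf2l1* was 7.45 to 7.72, 23.5 to 25.5 and 11.1 to 11.9, and that to *Pdia4* was 2.27 to 2.33, 5.58 to 6.24 and 2.90 to 3.31. The 3 conditions did not overlap in any of these ratios, and LPS gave the highest. *Hspa5* was called higher and these 3 genes lower with LPS, so the high LPS ratios follow from those calls. No share over other pairs of genes was taken, so the lack of overlap is a description. Relative to *Hsp90b1*, *Hspa5* went from 1.08 to 1.18 counts in unstimulated libraries to 1.88 to 1.99 with LPS and 1.45 to 1.56 with IFN-β. *Hspa5* took 33.7% to 34.8% of the summed CPM of the 10 genes in unstimulated, 50.9% to 52.1% in LPS and 41.1% to 43.5% in IFN-β libraries. The mRNAs in these ratios thus changed unequally whatever the scaling. *Hsp90b1* relative to *Pdia4* stood apart from that order: 1.96 to 2.15 unstimulated and 2.01 to 2.16 with IFN-β overlapped, and LPS lay above both at 2.87 to 3.32.

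**Figure D4:**
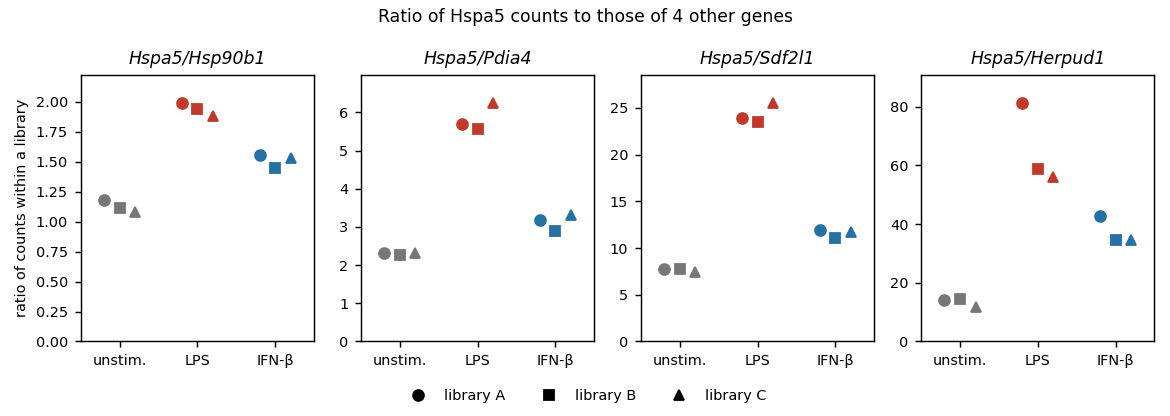
Ratio of *Hspa5* counts to the counts of *Hsp90b1*, *Pdia4*, *Sdf2l1* and *Herpud1* within each of the 9 libraries (circle A, square B, triangle C), on axes that start at 0. In each panel the LPS libraries are highest, the unstimulated ones lowest and the IFN-β ones between, without overlap.

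*Ern1* (ENSMUSG00000020715, chr11:106394650-106487852, minus strand) stood at 57.2, 52.5 and 51.9 CPM unstimulated, at 48.8, 53.9 and 51.1 with LPS and at 47.5, 49.4 and 48.4 with IFN-β. LPS and unstimulated libraries overlapped, and the IFN-β libraries lay below the unstimulated ones. The differences were -0.07 ± 0.06 with LPS (edgeR adjusted p = 0.347, 95% interval -0.21 to 0.07) and -0.15 ± 0.06 with IFN-β (adjusted p = 0.0718, -0.29 to -0.01). The IFN-β difference was called with the letter block (-0.15, edgeR adjusted p = 0.0401) and with the 2 groups fitted alone (-0.16, 0.0482). Both differences were called lower with upper-quartile factors, at -0.16 (edgeR adjusted p = 0.0438) and -0.23 (0.0129), and scaled by library size alone, at -0.65 (8.46e-06) and -0.46 (0.000319). The main LPS value ranged from -0.11 to -0.03 when 1 library was left out, lowest in size without unstimulated A.

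*Atf6* (ENSMUSG00000026663, chr1:170704674-170867771, minus strand) stood at 72.5, 62.1 and 59.9 CPM unstimulated, at 66.2, 58.8 and 68.0 with LPS and at 70.9, 63.9 and 63.7 with IFN-β. All 3 groups overlapped. The differences were -0.01 ± 0.09 with LPS (edgeR adjusted p = 0.92, 95% interval -0.21 to 0.19) and 0.03 ± 0.09 with IFN-β (adjusted p = 0.803, -0.17 to 0.23), on the TMM scale, and the signs were not stable across the alternatives. Scaled by library size alone *Atf6* was called lower with both stimuli, at -0.59 (edgeR adjusted p = 3.05e-05) and -0.27 (0.0106).

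*Xbp1* (ENSMUSG00000020484, chr11:5520659-5525893, plus strand) stood at 169.5, 162 and 174 CPM unstimulated, at 139.8, 144 and 162.5 with LPS and at 152, 150.5 and 164 with IFN-β. LPS C, at 162.5 CPM, reached the unstimulated range, and the other 2 LPS libraries lay below it. The LPS difference of -0.18 ± 0.07 (edgeR adjusted p = 0.0481, permutation test p = 0.2) only just passed the threshold. It passed in 1 of the 9 fits that left out a library, the one without LPS C, with values from -0.25 to -0.13 and adjusted p up to 0.162. The call was also lost with DESeq2 (-0.14, adjusted p = 0.122), without the filter on low counts (-0.20, 0.0718) and with the 2 groups fitted alone (-0.19, 0.0559). It held with the letter block (-0.18, edgeR adjusted p = 0.0091) and with at least 10 counts in every library (-0.19, 0.031). It also held with upper-quartile factors (-0.27, 0.00964) and scaled by library size alone (-0.76, 6.96e-06). The IFN-β difference was -0.12 ± 0.07 (edgeR adjusted p = 0.212, 95% interval -0.28 to 0.04). Scaled by library size alone it was -0.42 and called (edgeR adjusted p = 0.00121).

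*Ddit3* (ENSMUSG00000025408, chr10:127290774-127296288, plus strand) stood at 10.1, 11.5 and 6.54 CPM unstimulated, at 11.7, 12.8 and 10.2 with LPS and at 20.8, 22.3 and 19.4 with IFN-β. Unstimulated and LPS libraries overlapped, and all 3 IFN-β libraries lay above both. The gene was 2.22-fold higher with IFN-β (1.15 ± 0.17, edgeR adjusted p = 0.000369), the widest IFN-β response of the 10 genes, and IFN-β and LPS differed by 0.85 ± 0.17 (adjusted p = 0.00221). Both calls held without any 1 library. The LPS difference was 0.30 ± 0.18 (edgeR adjusted p = 0.149, 95% interval -0.09 to 0.70). It passed without unstimulated B (0.47, edgeR adjusted p = 0.0364) and with the letter block (0.32, adjusted p = 0.0167). Without unstimulated C it was 0.09 (edgeR adjusted p = 0.517), and its sign turned to -0.28 under scaling by library size alone. *Ddit3* shares 68 exon bases with *Mars* on the other strand, 13 with *Gm4189* on the other strand and 105 with its second identifier, and STAR leaves out reads that fall on 2 genes.

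Of 85 other genes of the pathway, in 7 lists, 84 were tested. *Derl3*, an ERAD gene, was below the filter. With LPS 30 were higher and 21 lower, and with IFN-β 19 were higher and 12 lower, against the background shares given above. The lists were not tested as sets, and their counts and medians are descriptions.

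The list of sensors, transducers and processing enzymes held 8 genes, of which 4 were higher and 2 lower with LPS and 2 higher and 3 lower with IFN-β, a balance that became 1 higher and 6 lower for each stimulus when scaled by library size alone. *Eif2ak3*, which encodes PERK, fell by 1.57 ± 0.09 on the log2 scale with LPS (edgeR adjusted p = 6.99e-08) and by 0.70 ± 0.08 with IFN-β (adjusted p = 7.97e-05), from a mean of 40.3 CPM to 13.5 and 24.8. In the same fit the mRNAs of the other two sensors, *Ern1* and *Atf6*, did not pass the test, but scaled by library size alone both were called lower with both stimuli. *Atf4*, whose protein is made mainly when eIF2α is phosphorylated, was at 108, 120 and 132 CPM, a difference of 0.16 ± 0.06 with LPS (edgeR adjusted p = 0.0245) and 0.29 ± 0.06 with IFN-β (adjusted p = 0.0014). Both signs turned when scaled by library size alone, to -0.42 and -0.01, and the LPS call was lost without unstimulated A (0.16, edgeR adjusted p = 0.055), unstimulated B (0.15, 0.0906), unstimulated C (0.15, 0.0774) or LPS B (0.13, 0.0837), and also with upper-quartile factors (0.067, 0.318), without the filter on low counts (0.14, 0.209) and with the 2 groups fitted alone (0.15, 0.0579). *Tmbim6*, which encodes the ER membrane protein BAX inhibitor-1, was higher with LPS (0.94 ± 0.11, edgeR adjusted p = 2.06e-05) and IFN-β (0.81 ± 0.11, 0.000186).

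*Atf6b*, a paralogue of *Atf6*, was higher with LPS (0.45 ± 0.07, edgeR adjusted p = 0.000192) and not called with IFN-β (0.10 ± 0.07, 0.267), and both signs turned when scaled by library size alone. *Mbtps1*, the site-1 protease that cuts ATF6, was lower with both stimuli, at -0.29 ± 0.06 with LPS (edgeR adjusted p = 0.00122) and -0.36 ± 0.06 with IFN-β (0.00063). *Mbtps2*, the site-2 protease, differed by -0.11 ± 0.08 with LPS (edgeR adjusted p = 0.255) and by 0.00 ± 0.08 with IFN-β (0.99), a value with no stable sign. Its LPS difference was called lower with upper-quartile factors (-0.20, edgeR adjusted p = 0.0371) and scaled by library size alone (-0.69, 9.52e-06). *Mbtps2* shares 2867 of its 10105 exon bases with *Yy2* on its own strand, and STAR leaves out reads that fall on 2 genes. *Rtcb*, the ligase that joins the cut ends of *Xbp1*, was lower with IFN-β (-0.22 ± 0.06, edgeR adjusted p = 0.00821), a call lost without the filter on low counts (-0.22, 0.0515). With LPS *Rtcb* was not called (0.12 ± 0.06, edgeR adjusted p = 0.0897). The LPS difference was called higher with DESeq2 (0.155, adjusted p = 0.0311) and turned to -0.47 when scaled by library size alone. *Eif2s1*, which encodes eIF2α, was higher with LPS (0.41 ± 0.06, edgeR adjusted p = 0.00012), a sign that turned when scaled by library size alone.

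In the PERK-ATF4 list, 7 of 14 genes were higher and 5 lower with LPS (median log2 fold change 0.94) and 6 higher and 1 lower with IFN-β (median 0.35), and scaled by library size alone 7 higher and 6 lower, and 4 higher and 4 lower. With the letter block the IFN-β counts were 8 higher and 4 lower. *Slc7a11*, the cystine transporter, was higher with LPS (2.09 ± 0.17, edgeR adjusted p = 1.06e-06), and *Ddit4*, an inhibitor of mTORC1, was lower (-1.20 ± 0.30, adjusted p = 0.00432). With IFN-β the extremes were the transcription factors *Atf3* (1.15 ± 0.12, edgeR adjusted p = 2.72e-05) and *Atf5* (-0.82 ± 0.09, 5.37e-05). Both moved in the same direction with LPS, *Atf3* by 1.69 ± 0.12 (edgeR adjusted p = 3.87e-07) and *Atf5* by -0.70 ± 0.09 (4.97e-05). CARE was present in the windows of 6 of the 13 genes of this list that have one.

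In the ER folding list, 3 of 15 genes were higher and 3 lower with LPS and 2 higher and 1 lower with IFN-β, and scaled by library size alone 0 higher and 14 lower, and 1 higher and 7 lower. The letter block called 4 higher and 3 lower with IFN-β. *Dnajb11*, which encodes the BiP cochaperone ERdj3, was higher with LPS (0.65 ± 0.06, edgeR adjusted p = 4.51e-06) and with IFN-β (0.65 ± 0.06, 1.84e-05). *P4hb*, which encodes protein disulfide isomerase, was lower with LPS (-0.69 ± 0.08, edgeR adjusted p = 1.81e-05) and with IFN-β (-0.29 ± 0.08, 0.0118), the latter not without IFN-β B (-0.26, 0.0524). ERSE was present in the windows of 6 of the 13 genes of this list that have one.

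In the ERAD list, 7 of 13 genes were higher and 1 lower with LPS and 5 higher and 2 lower with IFN-β, and scaled by library size alone 1 higher and 10 lower, and 0 higher and 7 lower. Without unstimulated B, unstimulated C or IFN-β A the IFN-β count was 3, all higher. Over all tested genes these fits called 3298, 3346 and 3282 higher and 3193, 3172 and 3185 lower with IFN-β. With all libraries the numbers were 3837 higher and 3794 lower. *Syvn1*, the ubiquitin ligase HRD1, was higher with LPS (0.77 ± 0.06, edgeR adjusted p = 1.21e-06) and with IFN-β (0.35 ± 0.06, 0.00108). *Ube2g2*, a ubiquitin-conjugating enzyme, was lower with LPS (-0.22 ± 0.06, edgeR adjusted p = 0.00685) and with IFN-β (-0.19 ± 0.06, 0.0224). *Edem2*, a mannosidase-like protein, was higher with LPS (0.66 ± 0.08, edgeR adjusted p = 3.81e-05) and with IFN-β (0.38 ± 0.08, 0.00374). *Vcp*, the p97 ATPase, was higher with LPS (0.32 ± 0.07, edgeR adjusted p = 0.00177) and lower with IFN-β (-0.22 ± 0.07, 0.0258). The IFN-β call was lost without unstimulated B (-0.24, edgeR adjusted p = 0.0541), unstimulated C (-0.19, 0.0767), IFN-β A (-0.19, 0.0875) or IFN-β B (-0.20, 0.0849). It was also lost without the filter on low counts (-0.22, edgeR adjusted p = 0.0701). *Herpud1*, which works in the same machinery, fell with LPS, as did 1 of these 13 genes on the TMM scale.

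The list for ER entry and glycosylation held 22 genes, with 5 higher and 7 lower with LPS and 2 higher and 4 lower with IFN-β, and 0 higher with either when scaled by library size alone, against 19 and 16 lower. *Ssr3*, a translocon-associated subunit, was higher with LPS (0.61 ± 0.11, edgeR adjusted p = 0.000528) and IFN-β (0.39 ± 0.11, 0.0135), the latter not without IFN-β A (0.29, 0.0614). *Kdelr3*, a receptor that returns ER proteins from the Golgi, was lower with both, at -1.08 ± 0.31 (edgeR adjusted p = 0.00865) and -1.38 ± 0.30 (0.0038), from a mean of only 0.763 CPM.

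Another list held 8 transcripts known from other studies as substrates of IRE1α-dependent decay (RIDD). Of these, 3 were higher and 1 lower with LPS and 1 was higher with IFN-β. Scaled by library size alone 2 were higher and 2 lower with LPS. The letter block called 2 higher with IFN-β. *Pdgfrb*, a growth factor receptor, rose from 0.714 to 23.5 CPM with LPS (5.02 ± 0.29, edgeR adjusted p = 1.02e-07). *Tapbp*, which encodes tapasin of the MHC class I loading complex, was higher with LPS (1.52 ± 0.17, edgeR adjusted p = 1.27e-05) and with IFN-β (1.22 ± 0.17, 0.000193). *Hgsnat*, a lysosomal enzyme, was lower with LPS (-0.43 ± 0.15, edgeR adjusted p = 0.0289), a call lost without unstimulated A (-0.26, 0.116), LPS B (-0.37, 0.096) or LPS C (-0.40, 0.0819).

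Of 4 death genes linked to CHOP, 1 was higher and 2 lower with LPS and 1 higher and 1 lower with IFN-β, and scaled by library size alone 1 higher and 3 lower, and 1 higher and 2 lower. *Pmaip1*, which encodes NOXA, was higher with LPS (1.20 ± 0.07, edgeR adjusted p = 7.38e-08) and IFN-β (0.74 ± 0.07, 1.16e-05). *Tnfrsf10b*, the TRAIL receptor known as a CHOP target, was lower with LPS (-1.04 ± 0.19, edgeR adjusted p = 0.000569) and IFN-β (-1.01 ± 0.19, 0.00133). In the same fit *Ddit3* itself was called higher with IFN-β and was not called with LPS.

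**Figure D5:**
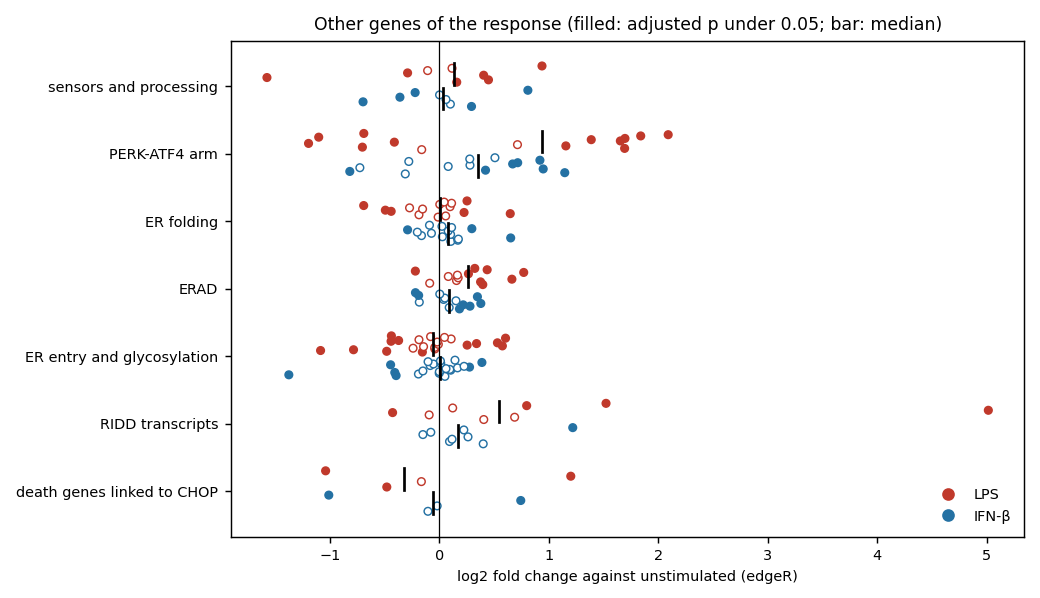
Log2 fold change of the 84 other tested genes of the pathway against unstimulated DCs for LPS (red) and IFN-β (blue), by list, with filled points at an adjusted p under 0.05 in edgeR and a bar at the list's median. The PERK-ATF4 list spreads to both sides of 0, with a median of 0.94 for LPS. The ER folding list has medians of 0.004 for LPS and 0.081 for IFN-β. Its genes run from -0.69 (*P4hb*, LPS) to 0.65 (*Dnajb11*, both stimuli).

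The genes outside the members and lists whose pattern was most like that of *Ddit3*, by Pearson's r of log2(CPM + 0.5) over the 9 libraries, were *Apof* (r = 0.98), *Siglec1* (0.98) and *Slc39a2* (0.98). *Siglec1*, a sialic acid-binding receptor of myeloid cells, went from 73.4 CPM to 108 with LPS and 230 with IFN-β. *Slc39a2*, a zinc transporter, went from 19.0 to 21.2 and 44.9 CPM, and *Apof*, at a low level, from a mean of 0.28 to 0.49 and 1.64 CPM. For *Xbp1* they were *Pgam1-ps2* (r = 0.96), *B230317F23Rik* (0.96) and *Ptgr1* (0.96). The first 2 of these were below 0.5 CPM in all 3 group means, and *Ptgr1* went from 58.0 to 43.0 and 46.1 CPM. The 9 points share the 3 conditions, and 102 tested genes for *Ddit3* and 69 for *Xbp1* had r above 0.9, so the likeness is a description.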

How the data were processed

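RNA of the 9 libraries was depleted of rRNA and sequenced as paired ends. Per the labels and the methods, the authors trimmed reads with Trim Galore 0.6.0, mapped them to GRCm38 with STAR and took its gene counts on a GENCODE annotation. The deposited values are raw counts, neither normalized nor filtered. The strand setting is not given in the sources used here. Coordinates and exon lengths are from GENCODE M21, which held 55230 of the 55471 identifiers.

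The counts were analysed in R 4.3.3 with edgeR 4.0.16 (limma 3.58.1), using TMM factors, the filterByExpr function and quasi-likelihood F-tests, with 1 term per condition over all 9 libraries. Benjamini-Hochberg adjustment ran over the 16260 genes that passed the filter, with calls at 0.05. The standard error is the absolute log2 fold change divided by the square root of F, and 95% intervals use the t distribution. The exact permutation test of 3 libraries against 3 cannot go below 0.1. CPM and RPKM used TMM-scaled library sizes, and correlations a pseudocount of 0.5 CPM. At this depth 3 counts correspond to 0.0674 to 0.106 CPM, which covers counting error only.

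Library letters were checked for pairing: deviations from group means correlated at 0.134 to 0.546 in the 9 same-letter pairs and at -0.48 to 0.062 in the 18 others, which centring ties together. The labels do not say what a letter stands for. Libraries of a group differed by more than sampling noise, with a chi-square of 13.6 to 37.8 per gene.

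The members, lists, rules and tests were chosen with earlier results of these data known. All 10 members were named, and from each list the called genes with the highest and lowest log2 fold change per stimulus, all sensors and processing genes of the first list, and for *Xbp1* and *Ddit3* the 3 most correlated genes. Where a gene of the other lists was named for 1 stimulus only, its value under the other stimulus was not refitted singly. Alternatives were DESeq2 1.42.0, upper-quartile factors, library sizes with no factors, no filter, at least 10 counts in every library, 2 groups fitted alone, the letter block, each library left out, an adjusted p under 0.01 and a minimum absolute log2 fold change of 1. Those for the lists were chosen after seeing the data.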

Additional observations from a re-analysis of the deposited data

Results flagged for a closer look

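For 4 of the 10 genes the response to IFN-β differed from the response to LPS, by edgeR's test of the difference itself, with an adjusted p under 0.05 over all 16260 tested genes. IFN-β and LPS share their unstimulated libraries, so the difference equals IFN-β against LPS. It was 0.85 for *Ddit3* (1.15 with IFN-β and 0.30 with LPS), higher in 3 of 3 letters. It was 0.79 for *Sdf2l1* (0.07 and -0.72) and 0.62 for *Pdia4* (0.23 and -0.39), each also higher in 3 of 3 letters. It was 0.49 for *Herpud1* (-0.81 and -1.30), which fell with both stimuli and less with IFN-β. All 4 differences were higher with IFN-β, and 25.8% of all tested genes were called in that direction. The cause of these differences was not tested.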

How the results depend on the processing

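Of the 210 values of the 10 genes under settings other than leaving out a library, 174 kept their direction and side of the threshold. Another 19 kept their direction and gained a call, 5 kept it and lost one, and 12 changed sign. With a library left out, the numbers were 241, 4, 15 and 10 of 270. A value that changed sign was counted only as such, also where it crossed the threshold, as *Hsp90b1* with LPS did when scaled by library size alone. With a minimum absolute log2 fold change of 1 the counts called were 1 with LPS, 1 with IFN-β and 0 between the stimuli. No share over all genes was taken at that setting, so these counts cannot be set against the rest of the genes. Scaled by library size only, 9 genes were called with LPS (1 higher, 8 lower), 7 with IFN-β (2 higher, 5 lower) and 9 between the stimuli (9 higher, 0 lower). Of all 16260 tested genes that scaling called 2777 higher and 9906 lower with LPS, 2146 and 7484 with IFN-β, and 7024 and 1996 between the stimuli. With that scaling 21.9% of all calls were higher with LPS, 22.3% with IFN-β and 77.9% between the stimuli, against 48.1%, 50.3% and 52.5%. The signs that turned with it were *Ern1* between the stimuli (0.19), *Atf6* with IFN-β (-0.27), *Ddit3* with LPS (-0.28), *Hsp90b1* with LPS (-0.41) and IFN-β (-0.062), *Dnajb9* with LPS (-0.47) and IFN-β (-0.14), *Sdf2l1* with IFN-β (-0.24) and *Pdia4* with IFN-β (-0.076). Among the other pathway genes named by the rule, the ones refitted singly, it turned *Atf4* (-0.42 with LPS, -0.012 with IFN-β), *Atf6b* (-0.13, -0.20), *Eif2s1* (-0.18, -0.25), *Rtcb* with LPS (-0.47) and *Mbtps2* with IFN-β (-0.31). Upper-quartile factors turned *Atf6* (-0.046), *Sdf2l1* (-0.009), *Mbtps2* (-0.077) and *Eif2s1* (-0.016) with IFN-β, and DESeq2 turned *Atf6* with LPS (0.028). *Mbtps2* with IFN-β, at 0.002, was -0.005 with at least 10 counts in every library, -0.006 with 2 groups alone and 0 with the letter block.

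With 1 library left out, sign changes were found for *Atf6* with LPS (-0.072 to 0.069), with IFN-β (-0.029 to 0.11) and between the stimuli (-0.026 to 0.077), *Hsp90b1* between the stimuli (-0.011 to 0.17), *Dnajb9* with LPS (-0.006 to 0.20) and between the stimuli (-0.045 to 0.17) and *Mbtps2* with IFN-β (-0.059 to 0.041). None of these 7 differences was called. With the letters as a replicate block, 7, 6 and 5 of the 10 genes were called, as were 11950, 9151 and 9425 of all 16260 genes against 11084, 7631 and 7989 without the block, and the paired fit lost none of the calls and gained those of *Ern1* (IFN-β), *Ddit3* (LPS), *Hspa5* (between the stimuli) and *Hsp90b1* (both stimuli). The share of genes called lower moved with the scaling setting, and the cause of these changes was not tested. The 3 libraries per condition limit small differences such as those of *Xbp1* and *Ern1*, and *Ddit3* varied by 27.4% (CV) between unstimulated libraries.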
